A study of Mus musculus with 6 samples.

Results

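A set of 10 genes of the cerebellar cortex was followed in whole brain: *Pcp2*, *Calb1*, *Car8* and *Itpr1*, which mark Purkinje cells, and *Gabra6*, *Cbln1*, *Cbln3*, *En2*, *Zic1* and *Zic2*, which mark granule neurons. They were taken by symbol, in a choice made with earlier results of these data known. All 10 were found among the 37310 genes of the count table. The brains came from 12-week-old male mice of the C57BL/6 strain, with 3 libraries for each of 2 genotypes and each library from a separate animal. Both genotypes were *Ifih1*-/-, so all animals lacked MDA5, a sensor of double-stranded RNA. The E861A genotype was homozygous for the editing-dead allele of *Adar1* (*Adar1* E861A/E861A), and the WT genotype was *Adar1*+/+. Mice with intact *Ifih1* were not part of the comparison. The study asked how loss of ADAR1 editing changes adult brain expression once MDA5 is gone.

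Purkinje cells are GABAergic neurons and the sole output of the cerebellar cortex. Granule neurons are small, very numerous and glutamatergic, and their parallel fibres synapse on Purkinje cell dendrites. CBLN1, secreted by granule neurons, organises this synapse. Of the genes described, *Pcp2* and *Gabra6* are largely restricted to their cell type in brain, while *Calb1*, *Car8* and *Itpr1* are also used by forebrain neurons and *Zic1* and *Zic2* by septum, thalamus and meninges.

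None of the 10 genes passed the test between genotypes in the main fit, which left out genes at low values. With same-numbered libraries compared as pairs, 2 of them, *Cbln3* and *En2*, passed and were lower in E861A. No source says that the numbers pair the libraries, so the paired result rests on an assumption. The same 2 genes also passed without pairs when no filter on low values was used. The share of all genes called in that fit is not given here, so the count cannot be judged. The mean levels of *Cbln3* and *En2* in E861A were 81.4% and 81.8% of WT. The Purkinje genes differed little, from 92.7% for *Itpr1* to 100% for *Calb1*, and *Gabra6* stood at 102%. Levels are CPM, the count scaled to the library's total, log2 fold changes are E861A over WT from edgeR's quasi-likelihood test with TMM scaling, and a gene is called when its adjusted p-value is under 0.05. In whole brain, fewer cells of a type and less RNA per cell cannot be told apart.

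The libraries held 26853488 to 38076753 counts. E861A replicate 1 carried pituitary transcripts, with *Gh* at 292 CPM against 0 to 1.30 CPM in the other 5 libraries. WT replicate 1 had the lowest *Adar* level, 116 CPM against 151 to 172 CPM elsewhere. The E861A allele is a point mutation, so the *Adar* count is no check of the genotype labels.

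The upstream sequences of 3 genes are shown because *Pcp2* and *Gabra6* are the reference genes for the patterns over libraries described later and *Cbln3* is one of the 2 genes that were lower in the paired comparison. They are the 250 bases before the RefSeq start in GRCm38.p6, read on the gene's strand, at chr8:3625548-3625797 (-) for *Pcp2*, chr11:42321073-42321322 (-) for *Gabra6* and chr14:55884257-55884506 (-) for *Cbln3*. Capitals mark AGGTCA, the half-site of ROR nuclear receptors, and TTGGC, the half-site of NFI factors, each searched on both strands, so that GCCAA is the NFI motif read from the other strand.
Pcp2: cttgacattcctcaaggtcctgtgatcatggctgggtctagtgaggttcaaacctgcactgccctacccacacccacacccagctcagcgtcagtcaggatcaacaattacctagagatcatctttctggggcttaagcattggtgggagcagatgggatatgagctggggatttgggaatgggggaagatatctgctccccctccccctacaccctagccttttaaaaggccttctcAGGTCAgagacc
Gabra6: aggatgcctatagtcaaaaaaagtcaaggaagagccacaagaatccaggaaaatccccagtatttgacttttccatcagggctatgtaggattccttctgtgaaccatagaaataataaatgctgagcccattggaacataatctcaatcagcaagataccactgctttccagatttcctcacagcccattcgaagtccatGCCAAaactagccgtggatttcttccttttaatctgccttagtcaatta
Cbln3: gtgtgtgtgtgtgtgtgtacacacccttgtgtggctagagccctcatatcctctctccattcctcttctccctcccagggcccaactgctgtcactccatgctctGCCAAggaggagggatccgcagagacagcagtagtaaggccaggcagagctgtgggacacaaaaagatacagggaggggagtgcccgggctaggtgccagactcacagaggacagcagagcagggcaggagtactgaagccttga
The *Pcp2* sequence held 1 AGGTCA, 12 bases before the start, with the most upstream of 4 listed starts used. *Gabra6* held 1 TTGGC motif, 49 bases before the start, and *Cbln3* held 1, 145 bases before it. Among 32851 promoters of the same length, 14.0% held AGGTCA and 41.5% held TTGGC. Such matches are common and describe the letters only.

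Per kilobase of exon, *Itpr1*, the calcium release channel of the endoplasmic reticulum, was the most abundant, with a mean of 113 CPM per kb and a range of 96.4 to 121 over the 6 libraries. *Car8*, which encodes an inactive carbonic anhydrase relative that binds ITPR1, followed at 50.0 CPM per kb (42.4 to 52.8), and *Calb1*, a calcium buffer, at 39.6 CPM per kb (37.6 to 42.0). These 3 did not overlap with each other. *Gabra6* at 29.7, *Zic1* at 25.8 and *Cbln3* at 20.6 CPM per kb came next, and the ranges of neighbours in that order overlapped. *Zic2* stood apart at 10.1 CPM per kb. *Pcp2* at 4.50, *Cbln1* at 4.24 and *En2* at 3.35 CPM per kb were lowest, again with overlapping ranges. The place of *Cbln1* depends on its gene model, as 67.5% of its exon bases are shared with another annotated gene on the same strand. Dividing all of its counts by the 762 unshared bases gave 13.0 CPM per kb. The value of 4.24 is thus too low if reads in the shared stretch were left out. The paper says that STAR's GeneCounts mode made the counts, and its treatment of the shared stretch was not examined here.

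**Figure D1:**
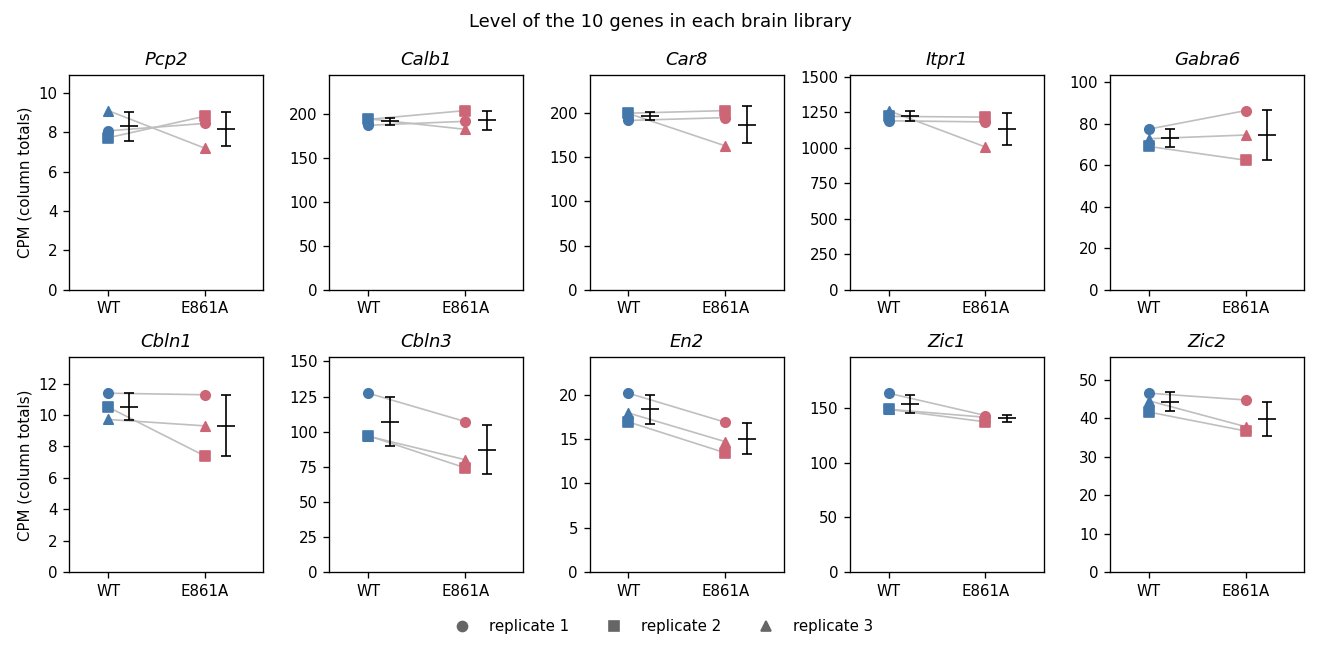
Level of each gene in CPM (y axis, starting at 0, scaled per panel) in the WT and E861A libraries. Grey lines join same-numbered libraries, and bars give mean ± SD of 3 libraries. For *Cbln3* and *En2* all 3 lines go down by a similar amount, and for *Car8* and *Itpr1* E861A replicate 3 lies below the other 5 libraries.

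*Pcp2* (ENSMUSG00000004630, NCBIM37 chr8:3623371-3625545, minus strand) encodes a G-protein regulator of Purkinje cells. Its level was 8.45, 8.82 and 7.19 CPM in E861A replicates 1 to 3 and 8.07, 7.72 and 9.10 CPM in WT. The groups overlapped, with both the lowest and the next to highest value in E861A. The mean was 8.15 ± 0.856 CPM against 8.30 ± 0.718 CPM (SD, n = 3 each), which on the log2 scale is -0.018 ± 0.103 (SE, edgeR adjusted p = 0.976) with a 95% interval from -0.239 to 0.204. On the opposite strand, 46.9% of its exon bases are shared with *Pet100*, and the strand used for counting was not stated.

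*Calb1* (ENSMUSG00000028222, chr4:15808411-15835211, plus strand) was the steadiest of the 10. It was at 191, 203 and 182 CPM in E861A and 187, 193 and 194 CPM in WT. The E861A libraries spanned the WT range on both sides. Means were 192 ± 10.7 and 191 ± 4.07 CPM (SD, n = 3 each), and the log2 fold change was 0.008 ± 0.051 with an interval of -0.101 to 0.117 (edgeR adjusted p = 0.977).

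*Car8* (ENSMUSG00000041261, chr4:8070514-8166188, minus strand) was at 195, 203 and 163 CPM in E861A and 192, 200 and 200 CPM in WT. Only E861A replicate 3 lay outside the WT values by more than a few CPM. Its log2 fold change was -0.075 ± 0.066 (edgeR adjusted p = 0.774). *Itpr1* (ENSMUSG00000030102, chr6:108163112-108501103, plus strand), which encodes the partner of CAR8, was at 1183, 1217 and 1006 CPM in E861A against 1191, 1222 and 1263 CPM in WT. It was lower in E861A in 3 of 3 same-numbered pairs, but by little in pairs 1 and 2. The log2 fold change was -0.109 ± 0.065 (edgeR adjusted p = 0.646). It was -0.035 without E861A replicate 3 and -0.173 without E861A replicate 2.

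*Gabra6* (ENSMUSG00000020428, chr11:42119939-42134574, minus strand) encodes the alpha subunit that sets granule neuron GABA-A receptors apart. It was at 86.4, 62.5 and 74.6 CPM in E861A and 77.4, 69.1 and 72.8 CPM in WT. E861A held both the highest and the lowest of the 6 values. Means were 74.5 ± 12.0 and 73.1 ± 4.17 CPM (SD, n = 3 each), and the log2 fold change was 0.024 ± 0.082 with an interval of -0.152 to 0.2 (edgeR adjusted p = 0.956). Without E861A replicate 1, the library with pituitary transcripts, it was -0.083.

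*Cbln1* (ENSMUSG00000031654, chr8:89992761-89996508, minus strand), the synaptic organiser, was at 11.3, 7.39 and 9.31 CPM in E861A and 11.4, 10.5 and 9.72 CPM in WT. Replicate 1 was high in both genotypes and E861A replicate 2 was the lowest of all. The log2 fold change was -0.186 ± 0.122 (edgeR adjusted p = 0.685), and these counts come with the shared gene model described above. It was -0.334 without E861A replicate 1 and -0.04 without E861A replicate 2.

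*Cbln3* (ENSMUSG00000040380, chr14:56497757-56503093, minus strand) encodes a cerebellin that is secreted only in complex with CBLN1. Its level was 107, 74.2 and 80.03 CPM in E861A replicates 1 to 3, and 127, 97.2 and 96.8 CPM in WT. Replicate 1 was the highest library of each genotype, so the groups overlapped, yet each E861A library was below the WT library of its number. Means were 87.2 ± 17.6 and 107 ± 17.6 CPM (SD, n = 3 each). The log2 fold change was -0.299 ± 0.113 with an unadjusted p of 0.0196 and an adjusted p of 0.462 by edgeR. With the replicate number as a block it was -0.302 ± 0.040, with an interval of -0.390 to -0.215 and an adjusted p of 0.00203. The exact permutation test of CPM, which ignores the pairs, gave p = 0.3 (two-sided, smallest possible 0.1). Without the block the value was -0.46 when E861A replicate 1 was left out and -0.164 when WT replicate 1 was left out.

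*En2* (ENSMUSG00000039095, chr5:28492236-28500152, plus strand) is a homeobox gene that patterns the midbrain and cerebellum and stays on in granule neurons. It was at 16.90, 13.45 and 14.71 CPM in E861A against 20.18, 16.94 and 17.95 CPM in WT. The groups did not overlap, though the highest E861A and the lowest WT value were nearly equal. Means were 15.0 ± 1.75 and 18.4 ± 1.66 CPM (SD, n = 3 each). The log2 fold change was -0.292 ± 0.084 with an unadjusted p of 0.00373 and an adjusted p of 0.261 by edgeR. With the replicate block it was -0.291 ± 0.060 with an adjusted p of 0.0395. Without the block it was -0.372 when E861A replicate 1 and -0.226 when WT replicate 1 was left out. The exact permutation p was 0.1, the smallest that 3 against 3 libraries can give. The blocked call was lost when pair 2 (adjusted p = 0.106) or pair 3 (adjusted p = 0.129) was left out. That of *Cbln3* held without any one pair (adjusted p from 2.49e-07 to 0.0109). Such fits rest on only 2 libraries per genotype, so their adjusted p-values are no firmer evidence than the full fit.

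*Zic1* (ENSMUSG00000032368, chr9:91252896-91260648, minus strand) and *Zic2* (ENSMUSG00000061524, chr14:122874604-122879074, plus strand) encode zinc finger factors of granule neuron precursors. *Zic1* was at 143, 137 and 141 CPM in E861A and 163, 149 and 149 CPM in WT, without overlap. Its log2 fold change was -0.127 ± 0.046 (edgeR adjusted p = 0.44, with the block 0.136). *Zic2* was at 44.8, 36.7 and 37.9 CPM in E861A and 46.6, 41.7 and 44.6 CPM in WT. The highest E861A library lay above 2 of the WT libraries, and the log2 fold change was -0.155 ± 0.065 (edgeR adjusted p = 0.515, with the block 0.141). Without E861A replicate 1 it was -0.234. Neither gene passed the test in either fit.

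**Figure D2:**
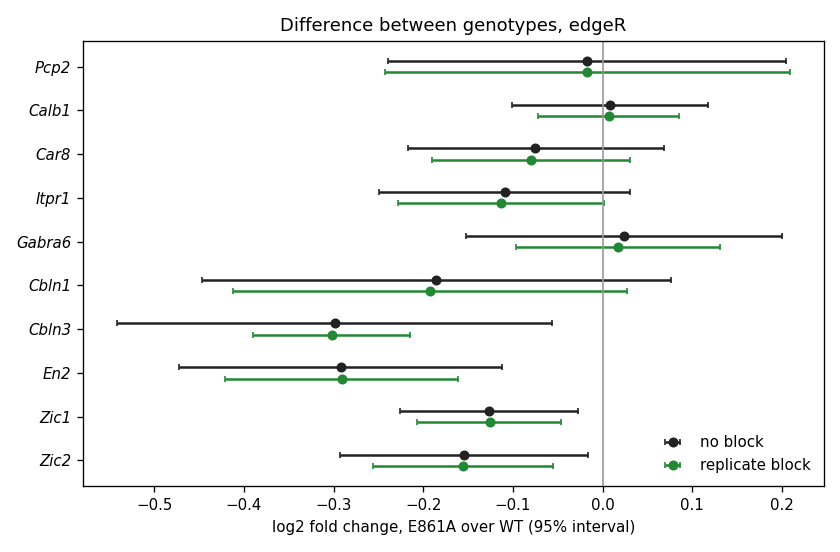
Log2 fold change of E861A over WT (x axis) with 95% intervals for each gene from edgeR, without (black) and with (green) the replicate number as a block. The estimates hardly differ between the fits, and the interval of *Cbln3* narrows from between -0.542 and -0.056 to between -0.390 and -0.215.

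All 10 genes passed the filter on low values. Of 13649 genes tested, 0.506% were called and 0.0952% were called lower in E861A, against 0 of the 10. DESeq2 and limma-voom also called 0. Without the filter edgeR called 2 of the 10, and the share of all genes called in that fit is not given here. With the block, 1.16% of all genes were called and 0.403% were called lower, against 2 of the 10, both lower. At an unadjusted p under 0.05 stood 4 of the 10 (*Cbln3*, *En2*, *Zic1* and *Zic2*) and 9.01% of all genes. The 2 genes that lay lower in E861A without overlap, *En2* and *Zic1*, compare with 6.81% of all genes, and the 6 that were lower in 3 of 3 pairs compare with 18.0%. The median log2 fold change of the 10 was -0.118, that of all genes tested was -0.001, and 8 of the 10 values were below 0. The 10 genes share libraries and cells and are not independent of each other.

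The 4 Purkinje genes were all lowest in E861A replicate 3, where *Car8* and *Itpr1* deviated from their 6-library mean by -0.233 and -0.227 on the log2 CPM scale. Median deviations of general neuronal (-0.067), cerebral cortex (-0.062) and striatum (-0.075) markers were also lowest there, so low values in it were not particular to Purkinje genes. Those of astrocyte (0.061) and meninges (0.203) markers were above 0. This library had the fewest counts and the highest mitochondrial share (13.79%). The share of all genes lowest in it was not computed. The 6 granule genes were all lowest in E861A replicate 2, where the deviation reached -0.41 for *Cbln1* and -0.364 for *Cbln3*. WT replicate 1 was the highest library for 5 of the 6 granule genes, with *Cbln3* at 0.414. The SD over the 6 libraries had a median of 0.132 log2 units for the 10 genes and 0.0886 for all genes tested, from the 18.8th percentile of tested genes for *Calb1* to the 97.0th for *Cbln3*.

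**Figure D3:**
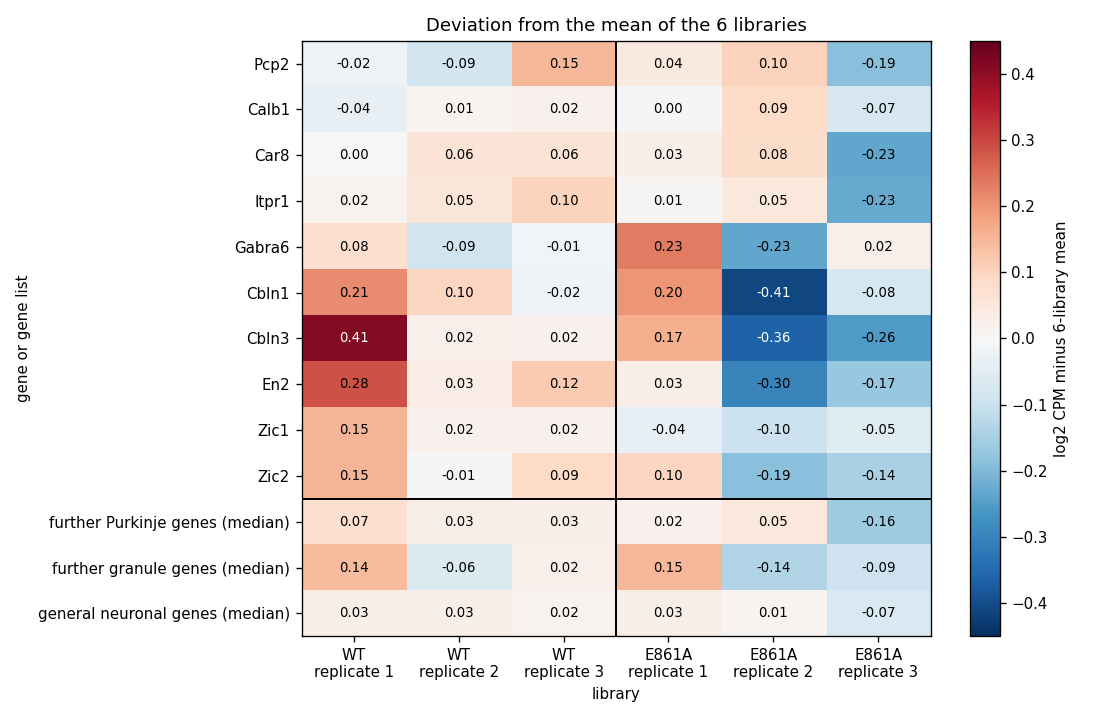
Deviation of log2 CPM from the 6-library mean (color and printed value) for each gene and, below the line, the median over the further Purkinje, granule and general neuronal genes, by library. The Purkinje genes are lowest in E861A replicate 3 and the granule genes in E861A replicate 2. The median of the general neuronal genes is also lowest in E861A replicate 3.

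By root mean square difference of centred log2 CPM over the 6 libraries, the member closest to *Pcp2* was *Itpr1* (0.0701), then *Car8* (0.0744) and *Calb1* (0.0846), with 1.2%, 2% and 4.8% of tested genes closer still. The member closest to *Gabra6* was *Zic2* (0.109), then *Cbln1* (0.125), with 13.3% and 24.1% closer. *Zic1* (0.139), *En2* (0.162) and *Cbln3* (0.194) were farther from *Gabra6*, with 36.9%, 59.1% and 82% of tested genes closer, and *Cbln3* was farther from it than the Purkinje gene *Calb1* was (0.179). The granule genes thus did not share 1 pattern over the libraries. Over all genes, *Scfd2*, *BC030500*, *Fam104a*, *Phf5a* and *Herpud1* were nearest to *Pcp2*, at 0.0253 to 0.0444. Those nearest to *Gabra6* were *Elmo3*, *Mpp3*, *Nrg2*, *Zic4* and *Smarcd2*, at 0.0217 to 0.0329. With 6 libraries, many genes come this close to any pattern.

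Ratios of counts within a library do not depend on scaling. The granule to Purkinje ratio, *Gabra6* to *Pcp2*, was 10.2, 7.08 and 10.4 in E861A and 9.59, 8.95 and 8 in WT. The groups overlapped and differed by 0.043 log2 units (exact permutation p = 0.8). The ratio of *Car8* to *Itpr1* was nearly constant, between 0.158 and 0.167 in all 6 libraries (difference 0.032, exact permutation p = 0.2). *Cbln3* to *Cbln1* (-0.109, exact p = 0.5), *Zic2* to *Zic1* (-0.031, exact p = 0.6) and *Calb1* to *Pcp2* (0.033, exact p = 0.8) did not pass either, and the adjusted p over the 5 ratios was 0.8 for each.

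Relative to *Gabra6*, a comparison chosen after the values were seen and so given without a test, *Cbln3* stood at 1.24, 1.19 and 1.07 in E861A and at 1.65, 1.41 and 1.33 in WT. *En2* stood at 0.196, 0.215 and 0.197 in E861A and at 0.261, 0.245 and 0.247 in WT. The ratios of *Cbln1* and *Zic2* to *Gabra6* also did not overlap between genotypes, and those of the other 5 genes did. These ratios share the same denominator and are not separate observations. *Gabra6* also had the highest log2 fold change of the set (0.024). The choice of denominator thus leans every ratio towards lower values in E861A. The share of all tested genes without overlap relative to *Gabra6* was not computed, so the count cannot be judged.

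**Figure D4:**
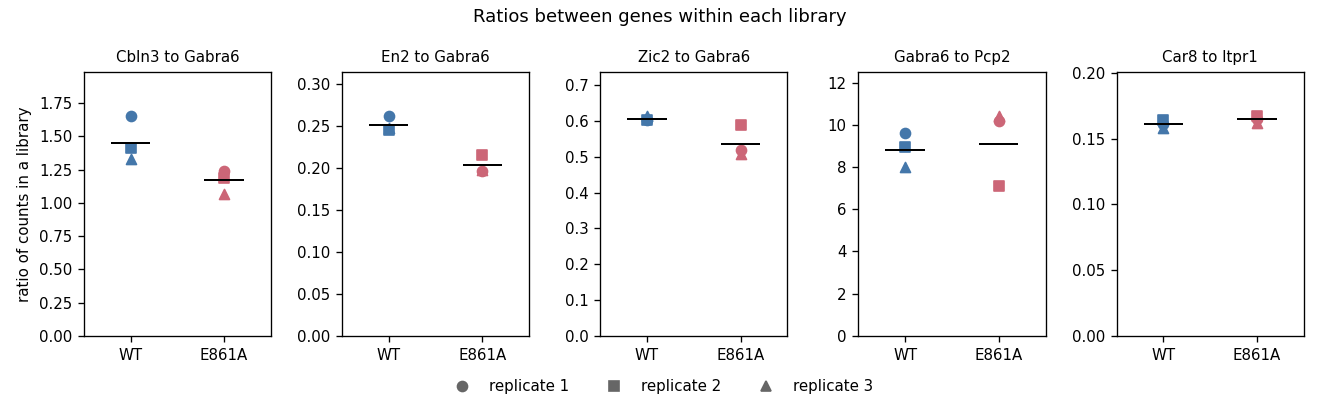
Ratio of the counts of 2 genes within each library (y axis from 0, no unit) by genotype, with the geometric mean as a line. *Cbln3*, *En2* and *Zic2* relative to *Gabra6* are lower in all E861A libraries than in any WT library, while *Gabra6* to *Pcp2* and *Car8* to *Itpr1* overlap. The ratios to *Gabra6* share a denominator and were chosen after the values were seen. *Gabra6* had the highest log2 fold change of the set, which leans these ratios towards lower values in E861A.

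Further genes of the same cells gave no call. Of 20 more Purkinje genes, 19 were tested, 0 were called with or without the block, 15 had a value below 0 and the median log2 fold change was -0.063. The most abundant were *Aldoc* (-0.063), *Rora* (0.041) and *Shank2* (-0.041), in order a glycolytic enzyme, a nuclear receptor and a postsynaptic scaffold. All 14 further granule genes were tested, 0 were called in either fit, 10 were below 0 and the median was -0.047. The most abundant were *Slc17a7* (-0.041), the vesicular glutamate transporter also used by cortical neurons, *Reln* (-0.047), a secreted guidance protein, and *Fat2* (-0.078), a granule neuron cadherin. Over both lists 4 genes had an unadjusted p under 0.05, and DESeq2 and limma-voom called 0. *Fat2* was at 189, 107 and 119 CPM in E861A and at 168, 135 and 133 CPM in WT, so that replicate 1 was high in both genotypes, as for *Cbln3*. The further Purkinje genes had a median deviation of -0.161 in E861A replicate 3, and the further granule genes one of -0.136 in E861A replicate 2.

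Of 10 close relatives of the 10 genes, 9 were tested and 0 called, with a median of -0.072. The most abundant were *Car10* (0.002), *Calb2* (-0.121) and *Car11* (-0.154). Among 10 markers of Bergmann glia, Golgi cells and molecular layer interneurons, 0 were called and the median was -0.108. With the block 1 was lower, *Tfap2a*, an interneuron transcription factor, at -0.660 (edgeR adjusted p = 0.0465). It was at 1.84, 1.54 and 1.71 CPM in E861A and 3.01, 2.42 and 2.63 CPM in WT. *Tfap2a* thus passed the filter on low values only through WT, the group where it was higher, and its call is no separate support.

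Summed levels of markers of other regions and cells are given as measured. The 10 pons and medulla markers summed to 36.4 to 42.6 CPM in E861A and 44.8 to 49.3 CPM in WT. Most of that sum was *Slc6a5*, a glycine transporter gene also used by cerebellar Golgi cells, with means of 28.4 and 34.0 CPM, and only 3 of the 10 were high enough to test. The 7 midbrain markers summed to 55.7 to 61.0 and 60.1 to 69.9 CPM, ranges that overlapped slightly. The 6 choroid plexus markers summed to 225 to 336 CPM in E861A and 394 to 414 CPM in WT, most of it *Ttr*, with means of 248 and 355 CPM. The 6 astrocyte markers, by contrast, summed to 4762 to 4960 CPM in E861A and 4157 to 4380 CPM in WT, most of it *Slc1a2*, the astrocyte glutamate transporter, with means of 4165 and 3630 CPM. *Slc1a2* was higher in E861A with the block (log2 fold change 0.2, edgeR adjusted p = 0.0374) and not without it (adjusted p = 0.261). The 6 general neuronal genes overlapped at 5327 to 5475 and 5350 to 5458 CPM. Microglia markers summed to 132.7 to 144.4 CPM in E861A and 146.5 to 148.9 CPM in WT. Hippocampus markers, a list that holds *Calb1*, were higher in E861A, at 732.6 to 754.1 against 661.6 to 720.8 CPM. The sums for cerebral cortex, striatum, thalamus, olfactory bulb and oligodendrocytes overlapped. How often such sums fail to overlap for other sets of genes was not computed. Of 7 markers of meninges and fibroblasts, a list that holds *Zic1*, 1 was called higher, the collagen gene *Col1a2* (0.421, edgeR adjusted p = 0.0199). Of the 7, 3 had a value below 0, and the sums overlapped at 217.8 to 236.1 CPM in E861A and 210.7 to 225.8 CPM in WT. The part of these differences in the values of *Cbln3*, *En2*, *Zic1* and *Zic2* was not tested.

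Within 5 Mb of *Zic1* on chromosome 9, 3 of the 47 genes tested were called, against 0.506% of all genes tested. They were *Cyb5r4* (0.668), *Cep162* (0.313) and *Trim43b* (-5.67), at -4336, -4168 and -2273 kb from *Zic1*. Negative distances are towards the chromosome start, so all 3 lay on the same side of *Zic1*. With the block 4 of the 47 were called, against 1.16% of all genes. *Zic4*, 4 kb from *Zic1*, was at -0.002. *Zic1* itself was not called.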

How the data were processed

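Whole-brain total RNA was depleted of ribosomal RNA and sequenced as stranded paired-end libraries, 3 per genotype. Per the labels, the submitters' processing notes name Trimmomatic 0.36, STAR 2.5.2a, edgeR and mm9. The authors deposited raw counts per gene, not normalized and not pooled, and the strand setting of the counting is not given in the sources used here. The deposited CPM tables and the authors' columns of log2 fold change, average expression and false discovery rate were not used.

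The analysis used edgeR 4.0.16 (R 4.3.3). A gene was tested if all 3 libraries of WT or all 3 of E861A reached a CPM of 2, which kept 13649 genes. These were scaled by TMM and compared by the quasi-likelihood test without covariates, with Benjamini-Hochberg adjustment over all genes tested. Alternatives were RLE scaling, column totals, other filters, DESeq2 1.42.0, limma-voom (limma 3.58.1), each library left out, and the replicate number as a block. Deviations of same-numbered libraries from their genotype means correlated across 13649 genes with r = 0.221, 0.329 and 0.112. The numbers were taken to pair the libraries, although no source says what they share. Correlations between differently numbered libraries were not computed, so these values cannot show that the numbers form pairs. Log2 CPM used a prior count of 2. Single values were compared by exact two-sided permutation tests, with a smallest p of 0.1. The script was tested on simulated data. Library totals were 26853488 to 38076753 counts. Coordinates are from GENCODE vM1 (NCBIM37), and promoters from RefSeq (GRCm38.p6), matched for 4 of the 10 genes.

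All 10 genes are named. From other lists, the called genes and the 3 most abundant are named, for *Pcp2* and *Gabra6* the 5 most alike genes, and for *Zic1* the called genes within 5 Mb. *Tfap2a*, *Slc1a2*, *Slc6a5*, *Ttr*, *Gh* and *Adar*, and those in the closing observations, were named after their values were seen. Some items are not reported here. The 10 genes and the lists were chosen with earlier results of these data known.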

Additional observations from a re-analysis of the deposited data

How the results depend on the processing

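With all genes kept (no filter), 2 of the 10 genes were called, *Cbln3* (-0.31, edgeR adjusted p = 1.33e-05) and *En2* (-0.302, edgeR adjusted p = 0.013). How many of all genes were called in that fit is not given here. With the replicate block 2 were called, the same genes, and none of the remaining 8 genes changed its call under the block. In the blocked fit, alternatives were chosen after seeing the data. They gave 2 calls with RLE scaling, column totals, filterByExpr or limma-voom, where 160, 126, 233 and 161 of all genes were called. DESeq2 gave 1 call (*Cbln3*, with *En2* at an adjusted p of 0.511) and 78 over all genes. Leaving out a library or a pair under the block gave 1 to 4 calls, while 67 to 435 of all genes were called. *Cbln3* was among the calls each time, and *En2* had an adjusted p up to 0.181. *Itpr1* and *Zic2* were added without either replicate 1, and *Zic1* without WT replicate 3. Those fits called 334 to 435 of all genes. Leaving out 1 library also takes its partner out of the paired comparison, so these fits are not separate checks. Without the block, leaving out any library gave 0 calls. Of 130 alternative values of single genes, 8 changed sign, in 4 genes. *Calb1* was -0.002 without a filter. Without one library, *Gabra6* ranged from -0.083 to 0.13, *Calb1* from -0.045 to 0.039, *Pcp2* from -0.092 to 0.055, *Car8* from -0.149 to 0.008, *Cbln1* from -0.334 to -0.04 and *Itpr1* from -0.173 to -0.035; single values that changed sign were -0.005 for *Gabra6* without WT replicate 2, -0.016 for *Calb1* without WT replicate 1 and 0.051 for *Pcp2* without WT replicate 3. The ratio *Gabra6* to *Pcp2* ranged from -0.052 to 0.223, *Cbln3* to *Cbln1* from -0.173 to -0.036, *Zic2* to *Zic1* from -0.106 to 0.007, and *Calb1* to *Pcp2* from -0.026 to 0.09. The cause of these changes was not tested. The low counts of *Pcp2*, 193 to 325 per library, limit its precision, and p-values rest on 3 animals per genotype.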

Other observations

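Beyond the 10 genes, 3 genes chosen after their values were seen lay lower in all E861A libraries than in any WT library. *Itpr3*, a relative of *Itpr1* used mainly outside neurons, was at 6.93, 6.26 and 6.18 CPM in E861A and 8.87, 7.59 and 8.07 CPM in WT, with a log2 fold change of -0.34 ± 0.097 (edgeR adjusted p = 0.253). *Slc6a5*, the glycine transporter of inhibitory neurons in hindbrain and of Golgi cells, was at 31.4, 25.7 and 28.1 CPM in E861A and 34.4, 35.3 and 32.5 CPM in WT (-0.265 ± 0.067, edgeR adjusted p = 0.169). *Ttr*, the transthyretin gene of choroid plexus, averaged 248 CPM in E861A and 355 CPM in WT (-0.512, edgeR adjusted p = 0.124, with the replicate block 0.0241).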
